A study of Mus musculus with 12 samples.

Results

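The guanylate-binding proteins of the mouse were followed by their mRNA in CT26 cells, a mouse colon carcinoma cell line. The members were the 10 protein-coding genes GBP2, GBP2B, GBP3, GBP4, GBP5, GBP6, GBP7, GBP8, GBP9 and GBP10, chosen by name from the 23636 gene symbols of the table, and all 10 were present. CT26 cells were left without treatment, or received CX3CL1 at 2 µg/ml, IFN-γ at 100 ng/ml, or CX3CL1 together with IFN-γ, in each case for 8 hours. There were 3 libraries in each of the 4 groups, labelled as biological replicates 1 to 3. CX3CL1, or fractalkine, is the chemokine ligand of the receptor CX3CR1, and IFN-γ is the type II interferon made by T cells and natural killer cells. The labels name IFN-γ alone for the cytokine groups, whereas the running text of the study also speaks of TNF-α, and the labels were followed here. That text also places CX3CL1 after the cytokines, whereas the legend gives no order, so the order of addition is not settled. All 4 groups share the same cell line, so no group carries another genotype. Nothing states whether the replicates came from separate cultures, so p-values measure the spread between these libraries, which may be technical in part.

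Guanylate-binding proteins are large GTPases of the dynamin superfamily that interferons induce in most cell types. They bind and hydrolyse GTP, assemble into oligomers, and coat the vacuoles or the surface of intracellular bacteria and parasites, where they help to break these compartments open and to engage inflammatory caspases. Some members, such as GBP2, GBP2B (the mouse GBP1) and GBP5, end in a CaaX motif that is prenylated and anchors them in membranes. IFN-γ signals through its receptor and the kinases JAK1 and JAK2 to genes with gamma-activated sites (GAS), while complexes with STAT2 and IRF9, and factors such as IRF1, act on interferon-stimulated response elements (ISRE).

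The genes lie in a pair of clusters on the GRCm38 assembly, to which mm10, the build of the alignment, corresponds. The chromosome 3 cluster runs on the plus strand from GBP5 (chr3:142496934-142522344) through GBP7, GBP3 and GBP2B to GBP2 (chr3:142620663-142638008). The chromosome 5 cluster runs on the minus strand and holds GBP8 (chr5:105012513-105053609), GBP9, GBP4, GBP10 and GBP6 (chr5:105270702-105295871), followed by the transcribed pseudogene GBP11 (chr5:105323026-105346476). RefSeq promoter sequences were matched for the 5 chromosome 3 genes in 6 entries, since GBP3 has 2 annotated starts. No entry was matched for the chromosome 5 members, so their promoters were not searched. The 5 genes shown made up most of the family's mRNA in every group. Each line gives the 250 bases before the annotated start, 5′ to 3′, from GRCm38.p6, with ISRE and GAS letters in capitals and, for GBP3, only its first start. The start is that of the promoter entry, which for GBP3 and GBP2B lies inside the outer bounds of the gene.
GBP5, chr3:142496684-142496933, plus strand: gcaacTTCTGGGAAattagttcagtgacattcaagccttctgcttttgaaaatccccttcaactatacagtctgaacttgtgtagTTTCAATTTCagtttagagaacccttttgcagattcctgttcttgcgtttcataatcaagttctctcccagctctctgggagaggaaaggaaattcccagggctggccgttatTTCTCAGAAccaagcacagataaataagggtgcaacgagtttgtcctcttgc
GBP7, chr3:142530086-142530335, plus strand: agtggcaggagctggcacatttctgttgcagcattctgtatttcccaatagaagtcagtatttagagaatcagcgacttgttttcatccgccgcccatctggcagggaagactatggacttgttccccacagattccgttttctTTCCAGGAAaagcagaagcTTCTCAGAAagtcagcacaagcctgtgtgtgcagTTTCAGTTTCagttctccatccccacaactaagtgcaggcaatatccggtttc
GBP3, chr3:142559794-142560043, plus strand: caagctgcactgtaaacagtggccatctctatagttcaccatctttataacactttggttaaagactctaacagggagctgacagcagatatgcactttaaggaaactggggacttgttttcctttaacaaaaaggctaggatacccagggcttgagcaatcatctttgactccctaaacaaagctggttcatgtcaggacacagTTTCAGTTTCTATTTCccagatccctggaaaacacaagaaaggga
GBP2B, chr3:142594597-142594846, plus strand: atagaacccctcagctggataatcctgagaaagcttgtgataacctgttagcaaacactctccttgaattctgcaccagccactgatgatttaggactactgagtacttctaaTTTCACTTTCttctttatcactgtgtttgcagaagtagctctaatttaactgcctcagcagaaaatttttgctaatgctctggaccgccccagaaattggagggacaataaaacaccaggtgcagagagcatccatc
GBP2, chr3:142620413-142620662, plus strand: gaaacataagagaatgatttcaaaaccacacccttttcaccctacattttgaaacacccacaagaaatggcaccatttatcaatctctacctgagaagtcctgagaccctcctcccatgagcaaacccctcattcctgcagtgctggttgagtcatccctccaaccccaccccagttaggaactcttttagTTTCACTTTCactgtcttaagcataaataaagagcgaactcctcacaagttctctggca

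The motifs were searched as letters on both strands, the ISRE as GAAANNGAAA, GAS as TTCNNNGAA, which reads the same on both strands, and an NF-kB-like site as GGGNNTTTCC. At least 1 ISRE was found in 5 of the 6 member promoters, whereas 2.98% of all 32851 RefSeq promoters of the same length held one. Its distance from the start ran from bases 165 to 156 in GBP5 to bases 45 to 36 in GBP3, where another match at bases 39 to 30 overlaps it. GAS letters were found in 2 of the 6 member promoters and in 7.02% of all promoters. In GBP7 they lay at bases 106 to 98 and 87 to 79 before the start, and in GBP5 at bases 245 to 237 and 52 to 44. The NF-kB-like letters were found in 1 of the 6, at bases 77 to 68 of GBP5, and in 1.41% of all promoters. No GAS or NF-kB-like match overlapped an ISRE in these windows, and the second start of GBP3 held none of the 3 motifs. These matches describe the letters near the starts and were not tested for binding.

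Similar sequence limits how far reads can be assigned among members. Over the transcripts, 0% of the 100-base stretches of GBP2, GBP2B and GBP5 recurred in another gene, 0.786% for GBP3, 0.435% for GBP7, 1.05% for GBP9, 2.88% for GBP4 and 3.81% for GBP8. By contrast, 46.7% of those of GBP6 and 33.2% of those of GBP10 were shared, nearly all between these 2 genes. At 150 bases, GBP6 still shared 30.3% and GBP10 22% of its stretches, so the separate values of GBP6 and GBP10 are uncertain. How the counting treated such reads is not given in the sources used here.

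The values are TPM, which are scaled for transcript length and to the same total in each library, so levels can be compared between genes but carry no read depth. The number of symbols with at least 1 TPM was 10613 to 10824 per library, and replicates correlated at 0.984 to 0.996 on the log2(TPM + 1) scale. The cells were checked against markers. Of 8 leukocyte markers, only CD14 (23.7 to 47.5 TPM) and LYZ2 reached 1 TPM in any library. The pan-leukocyte gene PTPRC stayed at or below 0.0441 TPM and the T cell gene CD3E was listed at 0 throughout. The summed level of these markers was 24.6 to 30.8 TPM without treatment, 28.5 to 49.4 TPM with CX3CL1, 27.7 to 37.6 TPM with IFN-γ and 31.8 to 43.3 TPM with both. Endothelial markers summed to 0.0725 TPM at most. The carcinoma line expressed VIM, KRT18, KRT20 and FN1, of which the keratins KRT18 (18.4 to 53.6 TPM) and KRT20 (6.44 to 16.8 TPM) are epithelial. The epithelial adhesion genes EPCAM and CDH1 were listed at 0 and at 0.043 TPM at most. The keratin KRT8 and the intestinal genes CDX2 and VIL1 reached at most 0.364, 0.191 and 0.0412 TPM. Thus 4 of the 9 markers of the line reached 1 TPM. The 9 markers of the line summed to 3956 to 5101 TPM without treatment and 2034 to 3314 TPM with CX3CL1+IFN-γ. Most of that sum was the mesenchymal gene VIM, at 3658 to 4831 TPM and 1684 to 3135 TPM in these groups. The part of these markers in the results was not tested. CX3CR1, the receptor of CX3CL1, was at 0 to 0.154 TPM and below the limit for testing. The study reported high CX3CR1 on CT26 cells by flow cytometry, which measures protein, whereas these values are mRNA.

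Without treatment, every member was detected and the family summed to 62.5, 24.5 and 38.8 TPM in replicates 1, 2 and 3. The chromosome 3 genes held 89.7% ± 0.247 (SD, n = 3) of that sum. GBP3 was the most abundant at 18.9, 7.65 and 11.7 TPM, followed by GBP2 at 15.1, 5.49 and 9.39 TPM. GBP7 (8.97 ± 3.85 TPM, mean ± SD, n = 3), GBP2B (5.5 ± 2.78 TPM) and GBP9 (2.18 ± 0.757 TPM) came next, and these first 5 places were the same in each untreated library. GBP4 and GBP6 changed places between libraries, as did GBP5 and GBP10, so their order does not hold beyond the spread. GBP8 was last at 0.234, 0.0476 and 0.231 TPM. Replicate 1 was the highest and replicate 2 the lowest untreated library for all 10 members, and the ratio between them had a median of 2.58.

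**Figure D1:**
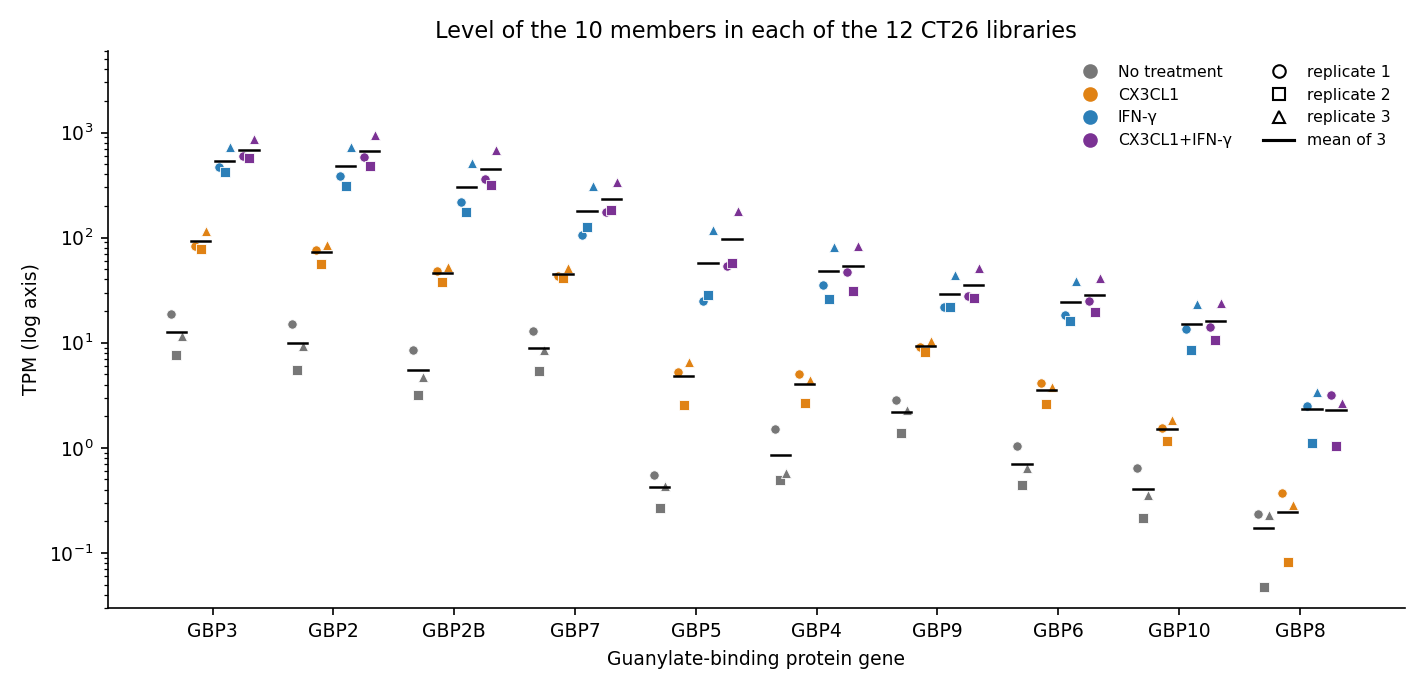
TPM of each member on a log axis in the 12 libraries, with colours for groups, symbols for replicates and a black line for each mean (n = 3). The IFN-γ libraries lie above all untreated and CX3CL1 libraries for every member, and the groups with IFN-γ alone and with both overlap for every member.

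Which members IFN-γ raised was asked by comparing the IFN-γ libraries with the untreated ones. All 10 members rose, and the 3 IFN-γ libraries lay above the 3 untreated ones for each of them. In this comparison 5.91% of the 11878 genes tested were called higher at an adjusted p below 0.05 and 1.94% were called lower, 702 and 230 genes. Fold changes from limma are of log2(TPM + 1), where the added 1 shrinks the change of genes at low TPM, so ratios of group means are given beside them. With the replicate number as a block, 11.4% of genes were called higher and the members' calls were the same 10. Under median-ratio scaling 642 genes were higher and 349 lower, and under quantile normalization 556 and 536, with all 10 members still called.

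GBP2, a prenylated member that coats pathogen vacuoles, was at 390, 311 and 734 TPM with IFN-γ, against 5.49 to 15.1 TPM without treatment. Its log2 fold change was 5.44 ± 0.36 (SE, adjusted p = 2.89e-06) and the ratio of means 47.8. GBP2B, formerly called mouse GBP1, was at 218, 176 and 510 TPM, against 8.59, 3.2 and 4.7 TPM, a log2 fold change of 5.46 ± 0.40 (adjusted p = 4.51e-06). In both genes every IFN-γ library was above every untreated one, and replicate 3 was the highest. GBP3, the most abundant member without treatment, was at 472, 423 and 727 TPM and rose by 5.34 ± 0.29 on the log2 scale (adjusted p = 1.15e-06).

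GBP5, known for promoting NLRP3 inflammasome assembly, had the highest ratio of means. It went from 0.557, 0.265 and 0.437 TPM without treatment to 25.2, 28.5 and 118 TPM, a ratio of means of 136 and a log2 fold change of 5.0 ± 0.55 (adjusted p = 6.36e-05). Replicate 3 stood far above the other IFN-γ libraries, and without it the log2 fold change was 4.30, still called (adjusted p = 1.03e-04). GBP7 rose from 13, 5.36 and 8.55 TPM to 107, 126 and 311 TPM, which was a ratio of 20.2 and a log2 fold change of 4.10 ± 0.38 (adjusted p = 1.67e-05).

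On chromosome 5, GBP4 rose from 0.493 to 1.5 TPM to 25.9 to 81.9 TPM, a log2 fold change of 4.58 ± 0.41 (adjusted p = 1.31e-05). GBP6 reached 16.2 to 38.3 TPM and GBP10 8.46 to 23.2 TPM, with log2 fold changes of 3.80 ± 0.31 and 3.42 ± 0.31. As GBP6 and GBP10 share sequence, these values cannot be fully separated. GBP9 rose by 3.20 ± 0.29 (adjusted p = 1.49e-05) and had the lowest ratio of means, 13.4. GBP8 was at 2.52, 1.11 and 3.43 TPM with IFN-γ, a log2 fold change of 1.46 ± 0.28 (adjusted p = 0.00542) and a ratio of 13.8. It remained the least abundant member in all 12 libraries. With a pseudocount of 0.1 the log2 fold changes of the low members were larger, at 6.45 for GBP5, 5.62 for GBP4, 4.88 for GBP10, 4.87 for GBP6 and 3.14 for GBP8.

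**Figure D2:**
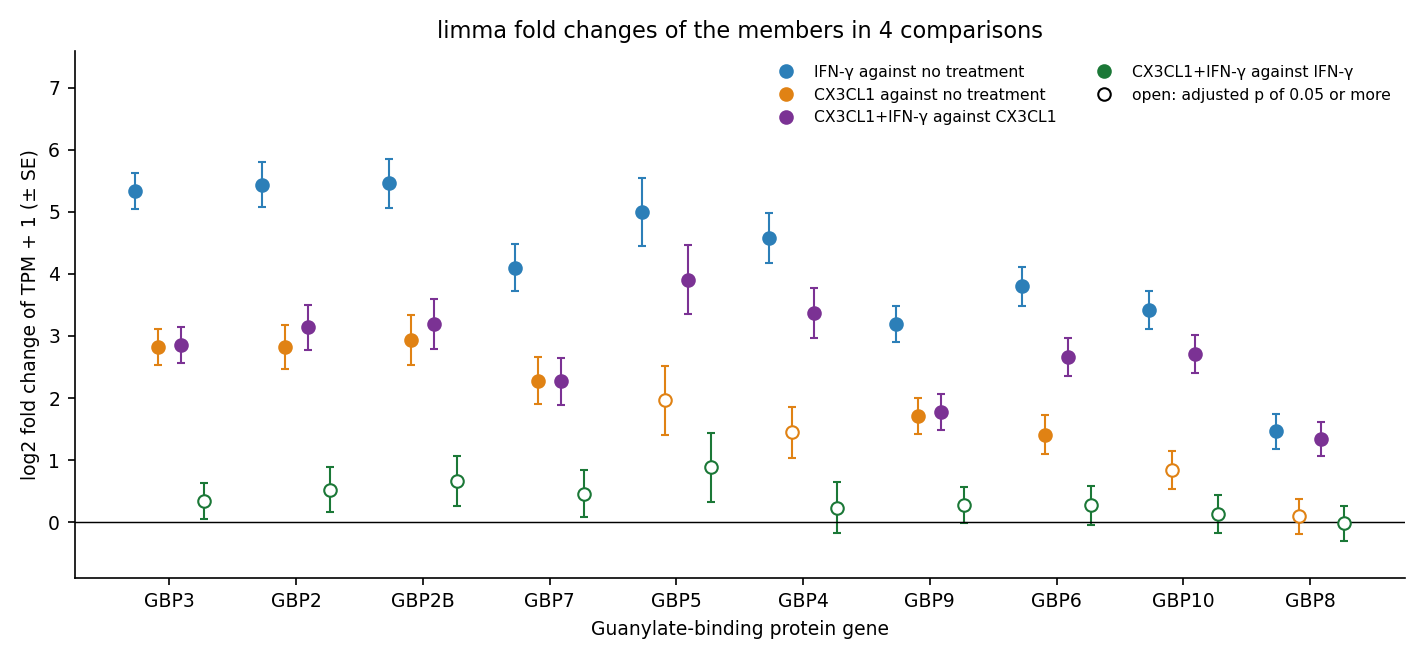
limma log2 fold change of TPM + 1 with its SE for each member in 4 comparisons, filled where the adjusted p is below 0.05. IFN-γ gave filled points for all 10 members with and without CX3CL1, CX3CL1 alone for 6, and CX3CL1 added to IFN-γ for 0.

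Whether CX3CL1 alone moved the family was asked against the same untreated libraries. Of the 10 members, 6 rose, namely GBP2, GBP2B, GBP3, GBP7, GBP9 and GBP6, and none fell, whereas 1.78% of all genes tested were called higher and 0.168% lower. The 3 CX3CL1 libraries lay above the 3 untreated ones for 9 members, all but GBP8, a separation that 5.5% of genes tested had in this direction. The 4 other members gave values that did not pass the test.

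GBP3 was at 82.4, 78.6 and 116 TPM with CX3CL1, against 18.9, 7.65 and 11.7 TPM without treatment. Its log2 fold change was 2.83 ± 0.29 (adjusted p = 1.90e-04) and its ratio of means 7.25. GBP2 was at 75.9, 56.5 and 85.9 TPM, a log2 fold change of 2.82 ± 0.36 (adjusted p = 0.00103). For these 2 genes the lowest CX3CL1 library was well above the highest untreated one. GBP2B was at 48.5, 37.9 and 52.6 TPM and had the highest log2 fold change, 2.94 ± 0.40 (adjusted p = 0.00141). GBP7 was at 42.8, 41.6 and 51.3 TPM (2.28 ± 0.38, adjusted p = 0.00539), and GBP9 at 9.13, 8.1 and 10.4 TPM (1.71 ± 0.29, adjusted p = 0.00626).

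GBP6 was at 4.18, 2.59 and 3.81 TPM, a log2 fold change of 1.41 ± 0.31 (adjusted p = 0.0363). Its call was lost without untreated replicate 1, 2 or 3, CX3CL1 replicate 1 or 3 or CX3CL1+IFN-γ replicate 1, and without the filter on low values, with adjusted p from 0.0503 to 0.176. With a pseudocount of 0.1 its log2 fold change was 2.21. GBP5 was at 5.21, 2.57 and 6.55 TPM, a ratio of means of 11.4 that was the highest of the family, but its log2 fold change of 1.96 ± 0.55 did not pass (adjusted p = 0.124). GBP4 likewise did not pass (2.65 to 5.05 TPM, 1.45 ± 0.41, adjusted p = 0.134). Both were called without IFN-γ replicate 3 (adjusted p = 0.0229 for GBP5 and 0.0466 for GBP4), with a pseudocount of 0.1 and with only the libraries compared, and then the count of members called was up to 9. GBP10 (1.15 to 1.84 TPM, 0.84 ± 0.31, adjusted p = 0.375) was called with the last 2 of these settings. GBP8 was at 0.372, 0.0816 and 0.287 TPM, overlapped the untreated libraries and had a log2 fold change of 0.09 ± 0.28 (adjusted p = 1).

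The effects of both agents were also set against each other directly, in the IFN-γ and the CX3CL1 libraries. All 10 members were higher with IFN-γ than with CX3CL1, without overlap, in a comparison where 3.52% of genes were called higher and 1.06% lower. With the replicate block 10.3% of genes were called higher. The log2 difference was highest for GBP4 (3.14 ± 0.41, adjusted p = 0.00119) and GBP5 (3.03 ± 0.55, adjusted p = 0.00829), and lowest for GBP8 (1.37 ± 0.28, adjusted p = 0.0152) and GBP9 (1.5 ± 0.29, adjusted p = 0.0125). Ratios of means ran from 3.18 for GBP9 to 12 for GBP5. GBP7 (1.82 ± 0.38, adjusted p = 0.0181), GBP8 and GBP9 lost their calls without CX3CL1 replicate 2 or IFN-γ replicate 3, GBP8 also without IFN-γ replicate 1 and GBP7 without the filter, with adjusted p from 0.0509 to 0.0724. The lowest count of members called was 7. With a pseudocount of 0.1 the log2 difference of GBP8 was 2.80. The log2 difference of GBP5 was 2.34 without IFN-γ replicate 3. Of all genes, 418 were higher and 126 lower, against 305 and 240 under median-ratio scaling and 278 and 236 under quantile normalization.

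IFN-γ was next compared in the presence of CX3CL1, in the CX3CL1+IFN-γ and the CX3CL1 libraries. All 10 members were again higher, without overlap, where 3.76% of genes were called higher and 0.935% lower. With the replicate block 8.71% of genes were called higher. GBP5 went from 5.21, 2.57 and 6.55 TPM to 53.9, 57.2 and 179 TPM (3.91 ± 0.55, adjusted p = 0.00133). GBP2 reached 582, 479 and 939 TPM (3.14 ± 0.36, adjusted p = 4.22e-04), and GBP3 601, 571 and 869 TPM (2.86 ± 0.29, adjusted p = 2.06e-04). These were the highest levels of the family in the data set. GBP8 had the lowest log2 fold change, 1.34 ± 0.28 (adjusted p = 0.0142), and lost its call without CX3CL1+IFN-γ replicate 1 or 3 (adjusted p = 0.0633 and 0.0714). With a pseudocount of 0.1 its log2 fold change was 2.76. Of all genes, 447 were higher and 111 lower, against 360 and 185 under median-ratio scaling and 349 and 228 under quantile normalization.

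Adding CX3CL1 to IFN-γ was compared with IFN-γ alone. No member passed the limma test (0 of 10, and 0 at an unadjusted p below 0.05), in a comparison where 0.345% of genes were called higher and 0.0168% lower. With the replicate block 0.749% of genes were called higher and again 0 members. In that fit GBP5 (unadjusted p = 0.0375, adjusted p = 0.571) and GBP2B (unadjusted p = 0.0474, adjusted p = 0.601) were below an unadjusted 0.05. The block fits a common effect of each replicate number over all groups, so it is not a paired test of these groups alone. The libraries of both groups overlapped for all 10 members, whereas in 8.54% of genes the 3 CX3CL1+IFN-γ libraries lay above the 3 IFN-γ libraries. Ratios of means ran from 0.976 for GBP8 to 1.69 for GBP5.

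In these 2 groups the replicate numbers paired the libraries, and within numbers most members were higher with CX3CL1. In 9 of the 10 members, all but GBP8, the CX3CL1+IFN-γ library was above the IFN-γ library of the same number in each of the 3 pairs, a pattern that 25% of genes tested had. GBP5 was at 53.9, 57.2 and 179 TPM against 25.2, 28.5 and 118 TPM, which gave ratios of 2.14, 2.01 and 1.52. GBP2B was at 360, 314 and 687 TPM against 218, 176 and 510 TPM, with ratios of 1.65, 1.79 and 1.35. GBP5 and GBP2B had the highest ratios of means of the family, 1.69 and 1.51, and their log2 fold changes of 0.88 ± 0.55 and 0.66 ± 0.40 had an adjusted p of 0.975. GBP3 had ratios of 1.27, 1.35 and 1.2 and GBP10 of 1.04, 1.26 and 1.02. GBP8 had ratios of 1.27, 0.941 and 0.771 and a log2 fold change of -0.02 ± 0.28, which was 0.04 and 0.21 without IFN-γ replicates 1 and 3 and 0.29 without CX3CL1+IFN-γ replicate 2. The sign of the log2 fold change turned without CX3CL1+IFN-γ replicate 3 for GBP4 (0.23 to -0.13), GBP6 (0.27 to -0.02), GBP9 (0.27 to -0.02) and GBP10 (0.13 to -0.17), and without IFN-γ replicate 2 for GBP4 (-0.11) and GBP10 (-0.20).

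**Figure D3:**
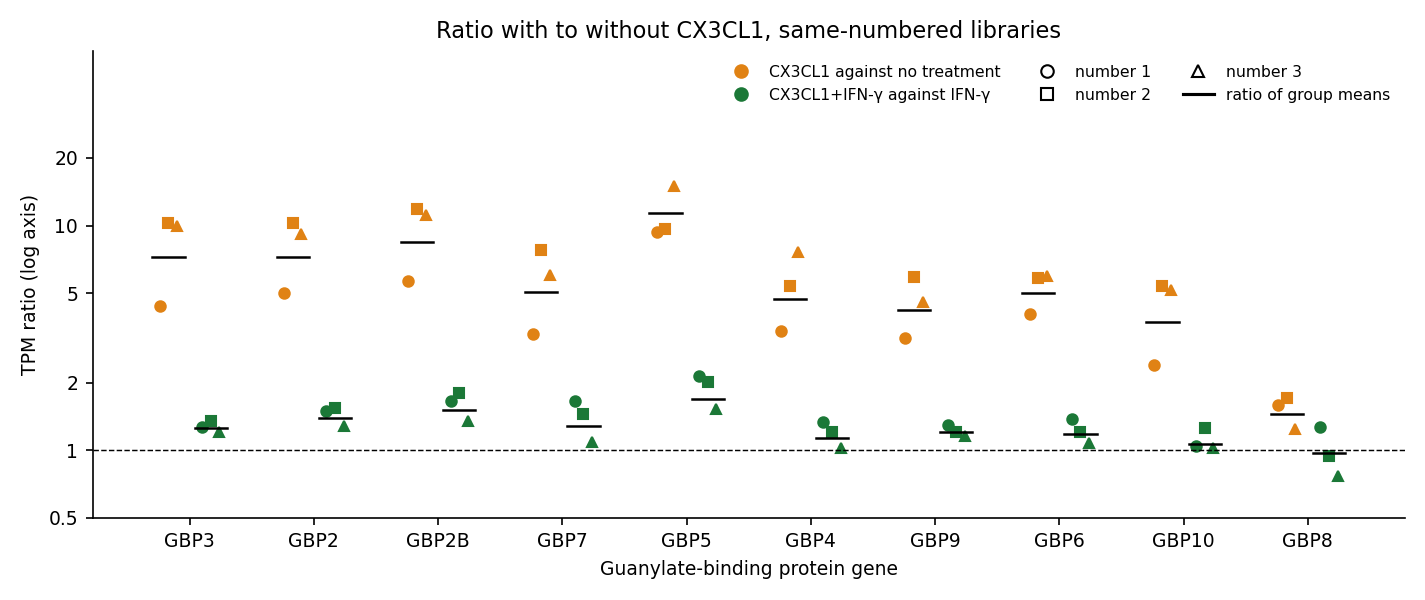
Ratio of TPM with CX3CL1 to TPM without it on a log axis, in untreated cells (orange) and in IFN-γ-treated cells (green), for libraries of the same number, with black lines for the ratio of means. The orange ratios of means run from 1.45 to 11.4 and the green ones from 0.976 to 1.69. The numbers were treated as pairing the libraries for the green points only.

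The interaction asked whether the log2 effect of CX3CL1 differed between cells with and without IFN-γ. It was negative for all 10 members, from -0.11 ± 0.39 for GBP8 to -2.48 ± 0.41 for GBP3, with a median of -1.33 against 0.01 over all genes tested. No member was called by limma in the fit without a replicate block (0 of 10), and 0% of the 11878 genes were called, with 273 genes at an unadjusted p below 0.05. The members varied together between replicates, so they are not separate observations. At an unadjusted p below 0.05, 6 members were negative, against 1.75% of genes. These were GBP3 (unadjusted p = 4.42e-05, adjusted p = 0.0792), GBP2 (-2.31 ± 0.51, adjusted p = 0.228), GBP2B (-2.28 ± 0.56, adjusted p = 0.371), GBP7 (-1.82 ± 0.54, adjusted p = 0.638), GBP9 (-1.44 ± 0.41, adjusted p = 0.579) and GBP6 (-1.14 ± 0.44, adjusted p = 1). Without untreated replicate 1 the value of GBP3 was -2.79 and passed (adjusted p = 0.0233), with 11 genes called in all, and without CX3CL1+IFN-γ replicate 2 there was 1 gene called. On the TPM scale the difference between means points the other way for 7 of the 10 members. The mean of GBP2 was 62.8 TPM higher with CX3CL1 than without treatment, and 188 TPM higher with CX3CL1+IFN-γ than with IFN-γ. For GBP5 these differences were 4.36 and 39.4 TPM, and for GBP9 7.04 and 5.87 TPM.

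Taking the members as a sum, the family reached 275, 232 and 333 TPM with CX3CL1, 1303, 1139 and 2591 TPM with IFN-γ, and 1891, 1692 and 3213 TPM with both. The means were 280 ± 50.8, 1678 ± 795 and 2265 ± 827 TPM (SD, n = 3), against 41.9 ± 19.2 TPM without treatment, ratios of 6.68, 40 and 54. The sums of the IFN-γ and CX3CL1+IFN-γ groups overlapped, and no other pair of groups did. In bulk RNA a change in the number of expressing cells and in the mRNA per cell cannot be told apart. The chromosome 3 genes held 93.4% ± 0.644 of the sum with CX3CL1, 93.1% ± 0.446 with IFN-γ and 94.1% ± 0.577 with both (SD, n = 3).

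The most abundant members were the same in every group, whereas the shares of some others varied with treatment. GBP3 and GBP2 held the first 2 places in all 12 libraries, with GBP2 ahead only in replicate 3 of the IFN-γ and CX3CL1+IFN-γ groups, so their order with IFN-γ does not hold beyond the spread. The share of GBP7 was 21.6% ± 0.631 without treatment, 16.3% ± 1.43 with CX3CL1, 10.4% ± 1.99 with IFN-γ and 10.2% ± 0.762 with both. That of GBP9 was 5.36% ± 0.653, 3.31% ± 0.185, 1.77% ± 0.152 and 1.55% ± 0.062 in the same order. GBP5 took the opposite course, with 1.03% ± 0.124, 1.66% ± 0.476, 2.99% ± 1.37 and 3.93% ± 1.44. It ranked 8 or 9 of 10 in untreated libraries and 5 or 6 in those with IFN-γ. GBP2B held 13% ± 0.832 without treatment and 19.7% ± 1.51 with both. These shares are given as a description, because with 3 libraries on each side the smallest p of a two-sided exact permutation test is 0.1.

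**Figure D4:**
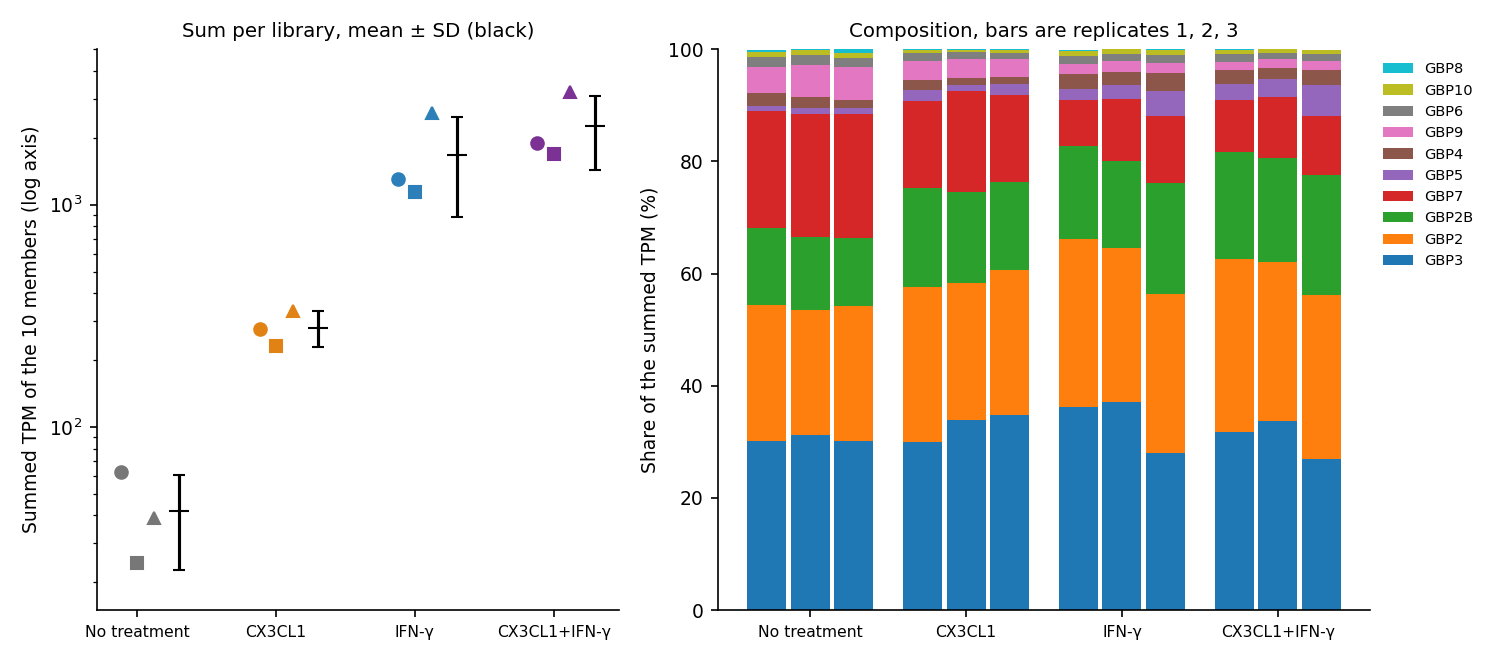
Left, summed TPM of the 10 members per library on a log axis with the mean ± SD of each group (n = 3). Right, share of each member in that sum, 1 bar per library, where the share of GBP7 (red) is smaller and that of GBP5 (purple) larger in the groups with IFN-γ.

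The members varied together between replicates. Their standard deviation within groups on the log2(TPM + 1) scale was 0.41 for GBP8 to 0.83 for GBP5, whereas the median over all genes tested was 0.17, and the members lay between the 96.7 and 99.7 percentiles of genes tested. Deviations from the group means correlated between members with a median of 0.90 over 45 pairs and 12 libraries, from 0.49 for GBP7 with GBP8 to 0.99. The points share libraries and an unknown depth, so this is a description. Replicate 3 was the highest IFN-γ library for all 10 members and the highest CX3CL1+IFN-γ library for 9, whereas replicate 1 was the highest untreated library for all 10. Replicate 2 was the lowest library for all 10 members without treatment and with CX3CL1, for 7 with IFN-γ and for 8 with both. What a number shares between groups was not stated, and its part in these results was not tested.

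The genes around the clusters were looked at for the same movement. Within 500 kb of the clusters, 7 other genes of the table lie on chromosome 3 and 6 on chromosome 5, of which 4 and 5 were tested. Without a block none was called by limma in any of the 6 comparisons, and with IFN-γ their log2 fold changes ran from -0.35 for PDLIM5 to 0.45 for LRRC8D. LRRC8D, a subunit of volume-regulated anion channels, was the 1 neighbour with an unadjusted p below 0.05. It was at 17.5 to 19.6 TPM without treatment, 22.9 to 31.5 TPM with CX3CL1, 23.6 to 27.4 TPM with IFN-γ and 34.2 to 45.5 TPM with both. Its adjusted p was 0.0639 for IFN-γ and 0.083 for CX3CL1 against no treatment, 0.186 for CX3CL1 added to IFN-γ (0.56 ± 0.13) and 0.0671 for IFN-γ added to CX3CL1. It passed with the replicate block for IFN-γ against no treatment (adjusted p = 0.0178), CX3CL1+IFN-γ against IFN-γ (0.0451) and CX3CL1+IFN-γ against CX3CL1 (0.0169). The log2 fold changes of the members with IFN-γ ran from 1.46 to 5.46. The pseudogene GBP11 in the chromosome 5 cluster, which is no member, went from 0.146, 0.0142 and 0.0477 TPM to 5.45, 1.86 and 8.45 TPM with IFN-γ (2.39 ± 0.42, adjusted p = 0.0028). With CX3CL1 it was at 0.235, 0.17 and 0.57 TPM and did not pass (0.30 ± 0.42, adjusted p = 1).

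Genes that work beside the guanylate-binding proteins were counted in lists chosen by function. The immunity-related GTPases are smaller interferon-induced GTPases that act on the same vacuoles. The list held 9 genes, the giant GTPase GVIN1 among them, and 7 were tested, all of them immunity-related GTPases. All 7 rose with IFN-γ, led by IIGP1 (4.93 ± 0.56, adjusted p = 9.10e-05) and TGTP1 (4.93 ± 0.40, adjusted p = 7.64e-06). With CX3CL1 3 of the 7 were called higher, IGTP (1.91 ± 0.33, adjusted p = 0.00683), IRGM2 (1.89 ± 0.28, adjusted p = 0.00251) and IRGM1 (1.28 ± 0.25, adjusted p = 0.0154). IIGP1, TGTP1, TGTP2 and IFI47 did not pass by limma (adjusted p from 0.0693 to 0.211). Their 3 CX3CL1 libraries also lay above the 3 untreated ones, a separation that 5.5% of genes tested had. Their ratios of means ran from 2.8 to 5.1, and all 7 genes had an unadjusted p below 0.05. The median log2 fold change of the list was 3.50 with IFN-γ and 1.44 with CX3CL1, beside 4.34 and 1.84 for the members and 0.03 and -0.02 for all genes. For the interaction the list median was -1.42, beside -1.33 for the members and 0.01 for all genes. None of the 7 was called in the interaction without a block, and 6 were negative at an unadjusted p below 0.05.

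Of the genes for the IFN-γ receptor and its transcription factors, STAT2, IRF1, IRF9 and the feedback inhibitor SOCS1 (0.97 ± 0.25, adjusted p = 0.0327) rose with IFN-γ. STAT2 was at 26.9, 16.1 and 24.6 TPM without treatment, 59.5, 48.1 and 77.2 TPM with CX3CL1 and 123, 130 and 181 TPM with IFN-γ, with no overlap between these groups. Its log2 fold changes were 1.42 ± 0.22 with CX3CL1 (adjusted p = 0.00288) and 2.64 ± 0.22 with IFN-γ (adjusted p = 7.64e-06). IRF9 rose by 0.80 ± 0.11 with CX3CL1 (adjusted p = 0.00176) and by 1.12 ± 0.11 with IFN-γ (adjusted p = 2.89e-05). IRF1, which binds ISRE, was at 18.7 to 20.5 TPM without treatment, 23.5 to 34 TPM with CX3CL1 and 77.6 to 166 TPM with IFN-γ, and it passed with IFN-γ (2.31 ± 0.28, adjusted p = 1.52e-04) but not with CX3CL1 (0.53 ± 0.28, adjusted p = 0.778). The receptor chains IFNGR1 and IFNGR2 did not pass with IFN-γ or CX3CL1 in the fit without a block, with log2 fold changes with IFN-γ of -0.14 ± 0.10 and 0.49 ± 0.16. IFNGR2 passed with IFN-γ under the replicate block (adjusted p = 0.00546), where its 3 libraries lay above the untreated ones. With CX3CL1 the log2 fold change of IFNGR2 was 0.58 ± 0.16 (adjusted p = 0.116, without a block), and its 3 CX3CL1 libraries also lay above the untreated ones.

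Among inflammasome partners, 5 of 8 genes were tested and 4 rose with IFN-γ, led by CASP4 (the mouse caspase-11, which senses cytosolic lipopolysaccharide; 3.40 ± 0.30, adjusted p = 1.31e-05) and CASP1 (1.77 ± 0.19, adjusted p = 5.24e-05). The other two were NLRP3 and GSDMD. CASP4, CASP1 and GSDMD also rose with CX3CL1, by 2.10 ± 0.30, 0.93 ± 0.19 and 0.69 ± 0.11 on the log2 scale. NLRP3 did not pass with CX3CL1 by limma without a block (1.07 ± 0.35, adjusted p = 0.253), at a ratio of means of 5.14. Its 3 CX3CL1 libraries, at 1.14 to 3.2 TPM, lay above the untreated ones at 0.22 to 0.592 TPM. The adaptor PYCARD reached at most 0.0747 TPM and was not tested. Of the 6 enzymes that prenylate and process CaaX proteins and of the 10 genes for ATG8 conjugation, which helps to direct the GTPases to vacuoles, 0 were called by limma without a block in any comparison, with 1 and 2 genes at an unadjusted p below 0.05 with IFN-γ. Under the replicate block ATG7 (0.57, adjusted p = 0.00377) and ATG16L1 (0.33, adjusted p = 0.0196) passed with IFN-γ. ATG7 then also passed for CX3CL1+IFN-γ against CX3CL1 (adjusted p = 0.00704) and for IFN-γ against CX3CL1 (adjusted p = 0.0153). In all these lists 0 genes passed for CX3CL1 added to IFN-γ, where 4 genes had an unadjusted p below 0.05. With the replicate block NLRP3 passed there (1.43, adjusted p = 0.00543), and without CX3CL1+IFN-γ replicate 2 NLRP3 and SOCS3 did.

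**Figure D5:**
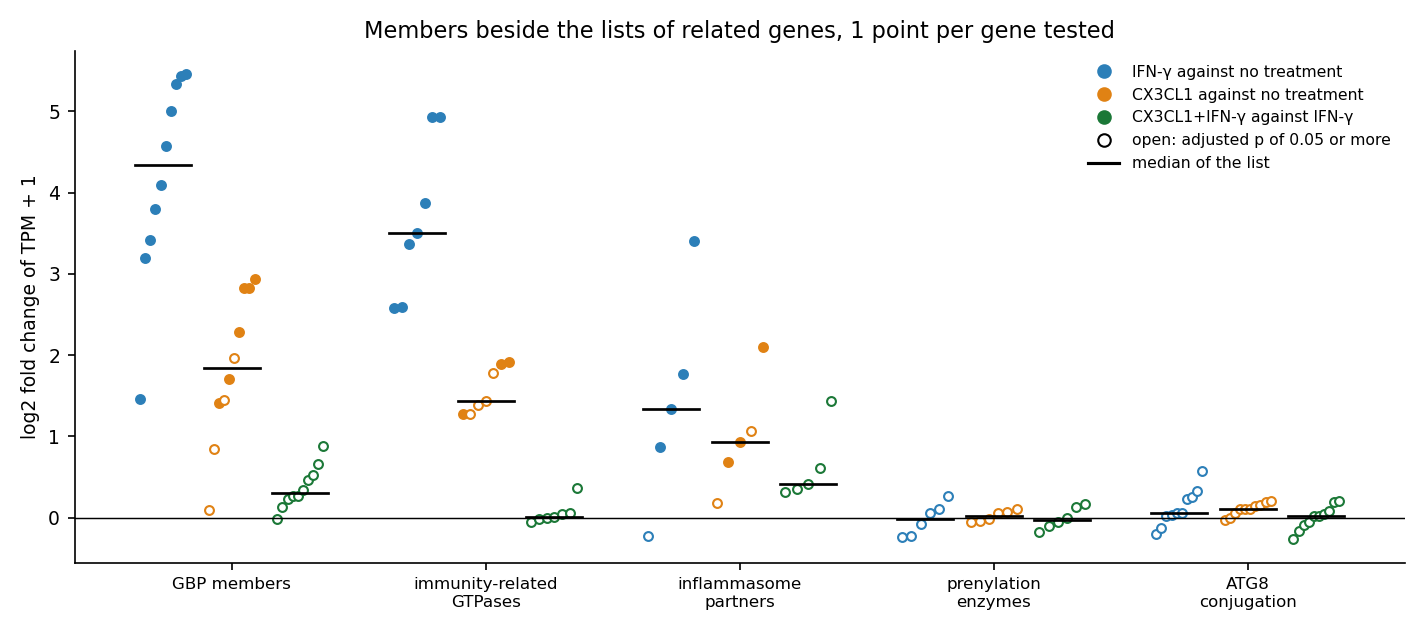
limma log2 fold change of TPM + 1 for each tested gene of the members and of 4 lists of related genes in 3 comparisons, filled where the adjusted p is below 0.05, with black lines for list medians. The medians with IFN-γ were 4.34 for the members and 3.50 for the immunity-related GTPases, and close to 0 for the prenylation enzymes and ATG8 conjugation.

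For each member, the genes outside the family with the most similar profile were found by Pearson's r of log2(TPM + 1) over the 12 libraries. GBP2 was most like STAT2 (0.995), GBP2B like SLFN2 (0.995), GBP3 like LGALS3BP (0.996) and GBP7 like DTX3L (0.998). GBP5 was most like the immunity-related GTPase IIGP1 (0.995), GBP9 like the ubiquitin ligase TRIM21 (0.996), and GBP4 and GBP6 like IFI207 (0.994 and 0.995). GBP10 was most like the chemokine CXCL11 (0.993) and GBP8 like IDO1, which degrades tryptophan (0.989). GBP8 and GBP10 had the least close partners of the 10. These correlations describe 12 points that fall into the 4 treatment groups and share libraries, so they mostly reflect the order of the groups and carry no test.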

How the data were processed

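RNA was isolated from CT26 cells and strand-specific mRNA libraries were sequenced. The authors aligned reads to mm10 with STAR 2.7.3a and tested gene counts with DESeq2 1.22.1, per the labels and the methods. The deposited values are TPM, scaled by the authors to 1000000 per library over 23636 symbols. How counts became TPM, the annotation and the depth that each library reached are not given in the sources used here, so precision is given by the spread of 3 libraries.

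Groups came from the labels, and doses and time from the study's legend and methods. Tests used limma 3.58.1 (lmFit and eBayes with trend) in R 4.3.3 on log2(TPM + 1), with all 12 libraries in the fit. The 11878 genes whose mean over the libraries reached 0.2 TPM were tested. P-values were adjusted by Benjamini-Hochberg over all genes tested and called below 0.05. The model was first tried on simulated data. The interaction is the log2 effect of CX3CL1 with IFN-γ minus that without. The members, lists, tests and alternatives were chosen with earlier results of these data known. All members were tested and counted in every comparison, but in several comparisons values are printed for only some of them. The 2 largest called changes per list chosen by function are named for the comparisons with no treatment, and not for every other comparison. Members given in only some comparisons, other list genes, neighbours and marker genes were named after their values were seen. A gene of the receptor and transcription list is not reported here.

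Deviations from the group means were positively correlated between libraries of the same replicate number for no treatment and IFN-γ (correlations across 11878 genes of 0.43, 0.46 and 0.22), CX3CL1 and IFN-γ (0.58, 0.36 and 0.23), CX3CL1 and CX3CL1+IFN-γ (0.35, 0.35 and 0.43), and IFN-γ and CX3CL1+IFN-γ (0.63, 0.64 and 0.65), and these were treated as paired. The pairing rests on these correlations, since no source says what a number shares. The replicate block fitted a common effect of each number over all 12 libraries, also for groups that were not treated as paired.

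Positions and promoters came from RefSeq GRCm38.p6, where 97.6% of symbols matched, and shared stretches from GENCODE vM21 transcripts. Figures were drawn with matplotlib 3.10.9.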

Additional observations from a re-analysis of the deposited data

How the results depend on the processing

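Over 1190 values of single members under the alternatives, 1149 kept their direction and their side of the threshold, 17 lost the call, 13 gained it and 11 changed sign. All 10 members stayed called for IFN-γ against no treatment under every alternative, and none was called for CX3CL1 added to IFN-γ under any. TPM carry no depth, so low members such as GBP8 have an unknown counting error, and their fold changes depend on the pseudocount. The interaction could not be fitted with only the libraries compared.

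Values that changed sign were not called. For CX3CL1 added to IFN-γ, leaving out each library in turn gave log2 fold changes from -0.13 to 0.70 for GBP4, -0.02 to 0.64 for GBP6, -0.33 to 0.29 for GBP8, -0.02 to 0.60 for GBP9 and -0.20 to 0.47 for GBP10. The interaction of GBP8 ran from -0.41 to 0.20. The sign changed without CX3CL1+IFN-γ replicate 3 (GBP4, GBP6, GBP9, GBP10) or 2 (GBP8), or without IFN-γ replicate 1 or 3 (GBP8) or 2 (GBP4, GBP10).

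Counts of all genes called moved with several settings. With the replicate block they were 1929, 455, 95, 1369, 1601 and 52, in the order IFN-γ against no treatment, CX3CL1 against no treatment, CX3CL1+IFN-γ against IFN-γ, CX3CL1+IFN-γ against CX3CL1, IFN-γ against CX3CL1, and the interaction. The numbers were not treated as pairing CX3CL1 with no treatment (correlations 0.39, 0.00 and 0.30) or CX3CL1+IFN-γ with no treatment (0.31, 0.45 and 0.03). The lowest correlation was near 0 in both. Because IFN-γ was treated as paired with no treatment, with CX3CL1 and with CX3CL1+IFN-γ, this split is a choice and not a known feature of the design. The block called 8 members for CX3CL1 against no treatment, adding GBP4 and GBP5. In the interaction it called 2, GBP3 (adjusted p = 0.0117) and GBP2 (adjusted p = 0.0189). Of the list genes it called 15 and 7, with NLRP3 among the 15 (adjusted p = 0.0101). Also among the 15 were IFNGR2 (adjusted p = 0.00559), IIGP1, TGTP1, TGTP2 and IFI47. For CX3CL1+IFN-γ against IFN-γ it called 1 list gene. It changed no call of a member in the paired comparisons. The block was added for the neighbours after seeing the data, and 1 of the 9 tested, LRRC8D, was then called for IFN-γ and for CX3CL1 against no treatment, for CX3CL1+IFN-γ against IFN-γ and for CX3CL1+IFN-γ against CX3CL1, against 0 without it. With only the libraries compared, 20, 344 and 252 genes were called for CX3CL1+IFN-γ against IFN-γ, CX3CL1+IFN-γ against CX3CL1 and IFN-γ against CX3CL1. Without the filter 28 were called for the first of these, and quantile normalization called 1 in the interaction. The cause was not tested.

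Leaving out each library in turn gave 530 to 1499, 152 to 268, 16 to 54, 270 to 668, 185 to 583 and 0 to 11 genes called, in the order above. Members called were 10 to 10, 5 to 8, 0 to 0, 9 to 10, 7 to 10 and 0 to 1, and list genes 14 to 18, 7 to 11, 0 to 2, 10 to 14, 7 to 11 and 0 to 0.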
